A study of Rattus norvegicus with 9 samples.

Results

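The transcripts of the nuclear pore complex were followed in a line of rat kidney fibroblasts, across cells given TGF-β1 with vehicle or with either of 2 compounds. Genes were taken by name: symbols starting with Nup and a digit, Nupl or Pom121, and the symbols Ranbp2, Tpr, Ndc1, Seh1l, Rae1 and Aaas. They were then selected on a measured value, a count above 0 in any library, which 29 of the 22050 genes of the deposited table met. Of the 32 rows with such names, Pom121l12, Nup62cl and Pom121l2 had no count in any of the 9 libraries. The member nearest to that limit was Nup210l, with 13 counts in the 3 vehicle libraries together, 6 in the YEXX-2A libraries and 5 in the YWCH-4A libraries. Seh1l was not analysed here. In the deposited annotation, 23 of the 29 genes carried a nuclear pore term.

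The cells were NRK-49F, an established line of rat renal interstitial fibroblasts, labelled wild type. All 3 groups, each of 3 libraries, received TGF-β1, the main cytokine of matrix production in fibroblasts, for 48 h. The first group had vehicle, the second YEXX-2A and the third YWCH-4A, compounds known only as code names and with no dose or time of addition in the labels. Untreated cells (no TGF-β1) are not analysed here, so every value below describes cells already under that cytokine. The series states biological replicates but not separate cultures, so p-values measure only the spread between these libraries. As a cultured line it lacks the other cell types of the kidney.

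Nuclear pore complexes are protein channels through the nuclear envelope, and all traffic of proteins, tRNA and mRNA between nucleus and cytoplasm passes through them. Each is built from rings of scaffold proteins, a membrane ring that anchors them in the envelope, a channel lined with proteins rich in phenylalanine-glycine repeats, filaments on the cytoplasmic face and a basket on the nuclear face. The scaffold proteins are long-lived and made in all cell types, while Nup210 is known for its rise during muscle and neural differentiation. In kidney disease the inner and outer ring genes are known for inherited defects of the podocyte.

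The promoters of the 3 genes with the largest differences between the compounds are shown first, as annotated windows matched by gene symbol. The starts used in these cells were not measured. They run from 250 bases before to 50 bases after the start in RefSeq (assembly GRCr8), on the gene's own strand. They are Nup210 (chr4:125166998-125167297, minus strand), Ranbp2 (chr20:26985064-26985363, plus strand) and Tpr (chr13:64974169-64974468, plus strand). Capitals mark matches to a GC box (GGGCGG), an E2F motif (TTCCCGC), an E-box (CACGTG) and CCAAT, each on either strand.
Nup210: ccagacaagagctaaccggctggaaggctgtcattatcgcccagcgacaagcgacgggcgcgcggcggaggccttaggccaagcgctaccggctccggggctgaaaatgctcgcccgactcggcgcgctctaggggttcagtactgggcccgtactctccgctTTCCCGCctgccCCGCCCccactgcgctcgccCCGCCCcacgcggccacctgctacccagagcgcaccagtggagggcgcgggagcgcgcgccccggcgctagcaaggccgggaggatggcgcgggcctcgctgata
Ranbp2: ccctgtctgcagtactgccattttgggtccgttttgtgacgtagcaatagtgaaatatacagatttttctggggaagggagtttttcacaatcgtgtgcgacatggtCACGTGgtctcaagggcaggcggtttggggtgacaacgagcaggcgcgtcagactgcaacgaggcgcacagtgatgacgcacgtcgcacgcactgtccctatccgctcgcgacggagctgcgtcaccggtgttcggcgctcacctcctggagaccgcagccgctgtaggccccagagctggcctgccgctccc
Tpr: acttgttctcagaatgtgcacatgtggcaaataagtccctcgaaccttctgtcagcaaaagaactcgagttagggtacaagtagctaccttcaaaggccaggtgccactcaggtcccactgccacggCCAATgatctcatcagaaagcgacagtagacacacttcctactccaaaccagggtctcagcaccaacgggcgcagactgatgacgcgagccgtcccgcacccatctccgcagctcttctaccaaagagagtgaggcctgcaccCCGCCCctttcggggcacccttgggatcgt

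The Nup210 window held 2 GC boxes and an E2F motif, the Ranbp2 window an E-box and no GC box, and the Tpr window a GC box and a CCAAT. RefSeq gave a window for 26 of the 29 genes, Nupl2 under its newer symbol Nup42, and none for Nup107, Ndc1 and the second Nup214 model. Their median GC content was 62.0% (46.0% to 71.7%), against 51.7% over 33469 windows of the same length, and their CpG ratio of observed to expected was 0.88 against 0.39. A GC box stood in 16 of the 26 windows (61.5%) and in 33.1% of all windows. The E2F motif stood in 6 (23.1%), those of Nup133, Nup210, Nup210l, Nup37, Nup58 and Nup62, and in 4.21% of all windows. The E-box stood in 4 (15.4% against 6.42%), the cAMP response element TGACGTCA in 3 (11.5% against 1.83%), CCGGAAG of the ETS family in 4 (15.4% against 8.75%) and the NRF1 motif in 1 (3.85% against 0.852%). CCAAT stood in 11 (42.3% against 37.5%), the NF-kappaB motif in 16 (61.5% against 47.3%) and CAGACA of the SMAD factors, which act downstream of TGF-β1, in 5 (19.2% against 21.1%). TATAAA stood in that of Nup210l alone (3.85% against 14.2%). The 33469 windows were not limited to genes expressed in these cells, so they are an unlike background for these members. Shorter and overlapping motifs share letters with GC-rich sequence, and a match is a description of the letters, not of binding.

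Library totals ran from 13675880 to 21923706 estimated counts, and 28 of the 29 genes passed the filter on low counts. Nup210l did not, and its pooled counts gave a ratio of 0.349 with YEXX-2A (exact 95% interval 0.109 to 0.984) and 0.283 with YWCH-4A (0.0791 to 0.847), intervals that cover counting error only. Of its 13 vehicle counts, 9 came from vehicle replicate 2. That library stood apart over all genes: on a score of each library along the main axis of variation within groups it was at 51.3, and the other 8 libraries between -25.8 and 6.0. The coefficient of variation between replicates was 16.7% among vehicle libraries, 4.7% without replicate 2, 7.3% with YEXX-2A and 3.7% with YWCH-4A. Fibroblast genes were abundant (Col1a1 at least 6221 CPM, Vim at least 2987), while Thy1 stayed at or under 0.888 CPM and Dcn at or under 0.25. Epcam, Krt18 and Umod, markers of kidney epithelium, had no count, and the leukocyte markers Ptprc, Tyrobp and C1qa stayed at or under 0.102 CPM. Of the endothelial list, Cdh5, Kdr, Tek and Emcn peaked at 0.728, 0.182, 0.781 and 0.0508 CPM. Other markers of these lists, Krt8, Aqp1, Cd68 and Flt1, were present in all 9 libraries. Of the epithelial list, Krt8 was at 896 to 2202 CPM and Aqp1 at 18.3 to 95.9 CPM. Cd68 of the leukocyte list was at 41.7 to 73.5 CPM and Flt1 of the endothelial list at 4.75 to 11.1 CPM.

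Levels between genes are compared per length, as deposited FPKM. In vehicle the channel gene Nup62 was highest, at 74.7 ± 4.05 FPKM (SD, n = 3), followed by Rae1 at 44.0 ± 2.73, Nup50 at 39.7 ± 4.68, Aaas at 39.1 ± 4.79 and Nup205 at 37.0 ± 4.99. Nup50, Aaas and Nup205 lay within each other's spread. The libraries of Rae1 (42.2 to 47.2 FPKM) overlapped those of Nup50 and Aaas and were above those of Nup205 (31.3 to 40.5). The lowest tested genes were Tpr at 4.82 ± 1.3, Nup160 at 3.52 ± 1.04 and Ranbp2 at 2.64 ± 0.661 FPKM, the order of Nup160 and Ranbp2 being within their spread. Subunits of the same ring thus differed in transcript level: in the outer ring Nup85 stood at 32.8 ± 1.74 FPKM and Nup160 at 3.52 ± 1.04. Nup210 was in place 15 of 29 in vehicle and 16 with YEXX-2A, and in place 2 with YWCH-4A, behind Nup62 alone. Its FPKM was 15.8, 18.1 and 15.9 in the vehicle libraries, 16.4, 15.7 and 17.1 with YEXX-2A and 49.7, 49.6 and 52.7 with YWCH-4A.

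**Figure D1:**
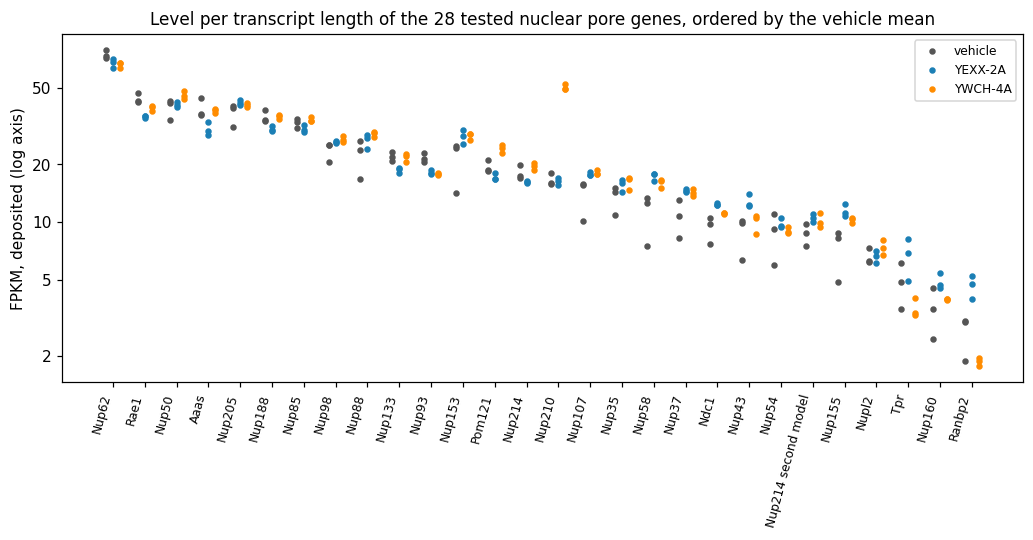
Deposited FPKM (log axis) of the 28 tested nuclear pore genes, a point per library and a colour per group, ordered by the vehicle mean. Nup62 leads in every group, and Nup210 alone leaves its neighbours, at 49.7 to 52.7 FPKM with YWCH-4A against 15.7 to 18.1 in the other libraries.

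Together the 29 genes made up 2133, 2088 and 2144 CPM (counts scaled to library size, with TMM factors) in the vehicle libraries, 2087, 2106 and 2122 with YEXX-2A and 2284, 2226 and 2269 with YWCH-4A. Without Nup210 the sums were 2020.2, 1948 and 2029 CPM in vehicle, 1974, 1998 and 2002 with YEXX-2A and 1960.0, 1904 and 1922 with YWCH-4A. With Nup210 counted, the YWCH-4A libraries were above all others. Without it they lay below the YEXX-2A libraries and vehicle replicates 1 and 3, and overlapped vehicle replicate 2. Nup210 made up 5.15% to 6.69% of the sum in the vehicle and YEXX-2A libraries and 14.2% to 15.3% in the YWCH-4A libraries. In bulk RNA, fewer cells with a transcript and less of it per cell cannot be told apart.

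With YEXX-2A against vehicle, 6 of the 28 tested genes rose, 8 fell and 14 did not pass the test (edgeR quasi-likelihood test, Benjamini-Hochberg adjusted p under 0.05 over 11473 genes). That is 50% called, beside 36.1% of all tested genes, with 17.6% of all genes called higher and 18.5% lower. The median log2 fold change was 0.10, and 0.01 over all tested genes. The rises were led by Ranbp2 (log2 fold change 0.73), Nup155 (0.57) and Nup58 (0.56), and the falls by Aaas (-0.44) and Rae1 (-0.40). The calls numbered 4 higher and 7 lower without vehicle replicate 2 (35.1% of all genes called), 1 and 3 without YEXX-2A replicate 1 (12.6%), 1 and 1 without YEXX-2A replicate 2 (9.03%), and 2 and 5 with the library score in the model (20.3%). Where the nuclear pore calls dropped most, those over all genes dropped too. On deposited FPKM (limma on log2 values with 1 added) 6 were higher and 5 lower, and 62.0% of the calls over all genes were higher, against 48.8% on counts.

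With YWCH-4A against the same vehicle libraries, 1 gene rose, Nup210, and 5 fell: Ranbp2, Tpr, Nup93, Nup62 and Rae1. Of the 28 tested genes 21.4% were called, against a background of 30.6%, with 15.7% of all genes called higher and 14.9% lower. The median log2 fold change was -0.01, and 0.03 over all tested genes. Nup210 rose 2.70-fold, from 123 ± 14.9 to 331 ± 13.2 CPM (SD, n = 3), and was in place 419 of the 11473 genes by the size of its change. The called falls were between 0.635 and 0.790 of the vehicle level. On deposited FPKM, where the median of all genes shifted by 0.18, 5 genes were called higher (Nup210, Pom121, Nup37, Nup58 and Nup155) and 2 lower (Nup93 and Rae1). There 78.1% of the calls over all genes were higher, against 51.2% on counts. The library score as a covariate gave 4 higher and 8 lower (42.9% of the 28 genes, 49.4% of all genes), and 2 were higher and 6 lower without vehicle replicate 2 (28.6%, and 39.4% of all genes). Calls over all genes rose in both of these fits as well.

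The 2 compounds were set against each other directly, as given, since no dose is stated. Nup210 and Pom121 were higher with YWCH-4A, and Ranbp2, Tpr, Nup43 and Ndc1 were lower, which is 21.4% of the 28 tested genes. The Ndc1 difference of -0.24 (edgeR adjusted p = 0.0493) was lost as a call in 11 of 20 alternatives, 7 of them with a library left out. Over all genes 31.3% were called, 16.2% higher and 15.1% lower. The median log2 difference was -0.07, and 0.00 over all tested genes. The vehicle libraries enter this comparison through the shared estimate of spread, and without vehicle replicate 2 the calls were 5 higher and 10 lower (53.6% of the 28 genes, 51.6% of all genes). On FPKM 6 were higher and 2 lower, with 72.6% of the calls over all genes higher, against 51.7% on counts. For the 22 genes not called, the 95% intervals lay between -0.75 and 0.47 on the log2 scale, which bounds the differences that 3 libraries a group allow.

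**Figure D2:**
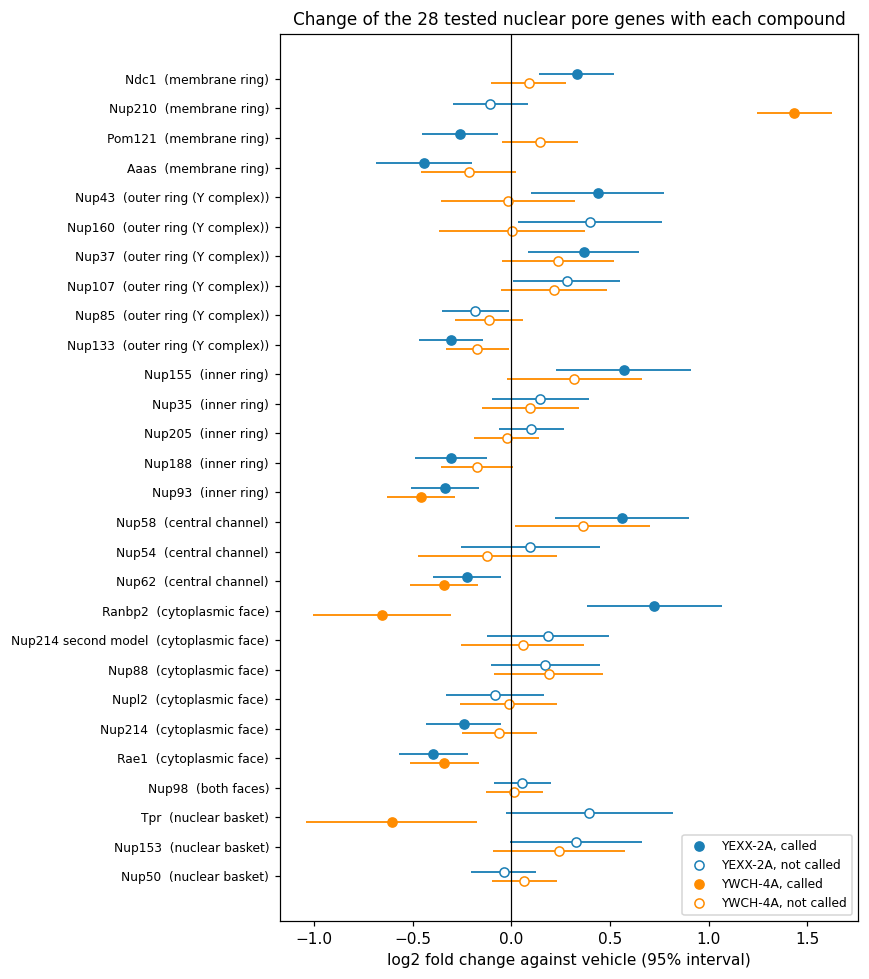
Log2 fold change against vehicle of the 28 tested genes with YEXX-2A (blue) and YWCH-4A (orange), grouped by place in the pore, with 95% intervals; filled points are called at an adjusted p under 0.05. Against the 3 vehicle libraries that both comparisons share, Nup210 lies at 1.43 with YWCH-4A and -0.11 with YEXX-2A, and Ranbp2 at -0.65 and 0.73.

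Among the membrane ring genes, Nup210, a transmembrane glycoprotein of the pore, stood at 113, 139.7 and 115 CPM in the vehicle libraries, 113, 108 and 119.9 with YEXX-2A and 324, 323 and 346 with YWCH-4A. The 3 YWCH-4A libraries were far above the other 6, which overlapped each other. Its log2 fold change was 1.43 with YWCH-4A (SE 0.09, edgeR adjusted p = 6.18e-07), -0.11 with YEXX-2A (95% interval -0.30 to 0.08, adjusted p = 0.328) and 1.54 between the compounds (95% interval 1.35 to 1.73, adjusted p = 3.60e-07). The rise was called in all 20 alternative settings (other scalings, filters, tests and covariates, or a library left out), between 1.38 and 1.61. Pom121, a transmembrane protein that anchors the scaffold, was at 106, 129 and 106 CPM in vehicle, 92.4, 91.9 and 101 with YEXX-2A and 126, 119 and 132 with YWCH-4A. The YEXX-2A libraries lay below all others, while those of vehicle and YWCH-4A overlapped. It fell by 0.26 with YEXX-2A (edgeR adjusted p = 0.0403), a call kept in 10 of 20 alternatives, and was higher with YWCH-4A than with YEXX-2A by 0.40 (SE 0.09, adjusted p = 0.00514) in every alternative. Against vehicle its change with YWCH-4A was 0.15 (adjusted p = 0.229), and 0.24 without vehicle replicate 2 (adjusted p = 0.00219). Ndc1, the membrane protein that binds Aaas and the inner ring, went the other way. Its CPM was 48.4, 41.5 and 52.7 in vehicle, 58.9, 60.3 and 60.2 with YEXX-2A and 50.1, 50.6 and 50.9 with YWCH-4A. The YEXX-2A libraries were above all others, and it rose by 0.33 (edgeR adjusted p = 0.0181, kept in 17 of 20 alternatives). Aaas, a WD-repeat protein recruited by Ndc1, fell by 0.44 with YEXX-2A (adjusted p = 0.0159, kept in 18), from 72.0, 95.1 and 72.1 CPM to 63.6, 53.9 and 58.1. Its YWCH-4A libraries, at 69.2, 69.6 and 66.8 CPM, lay between those groups. Vehicle replicate 2 held the highest Aaas value, and without it the fall was -0.30.

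**Figure D3:**
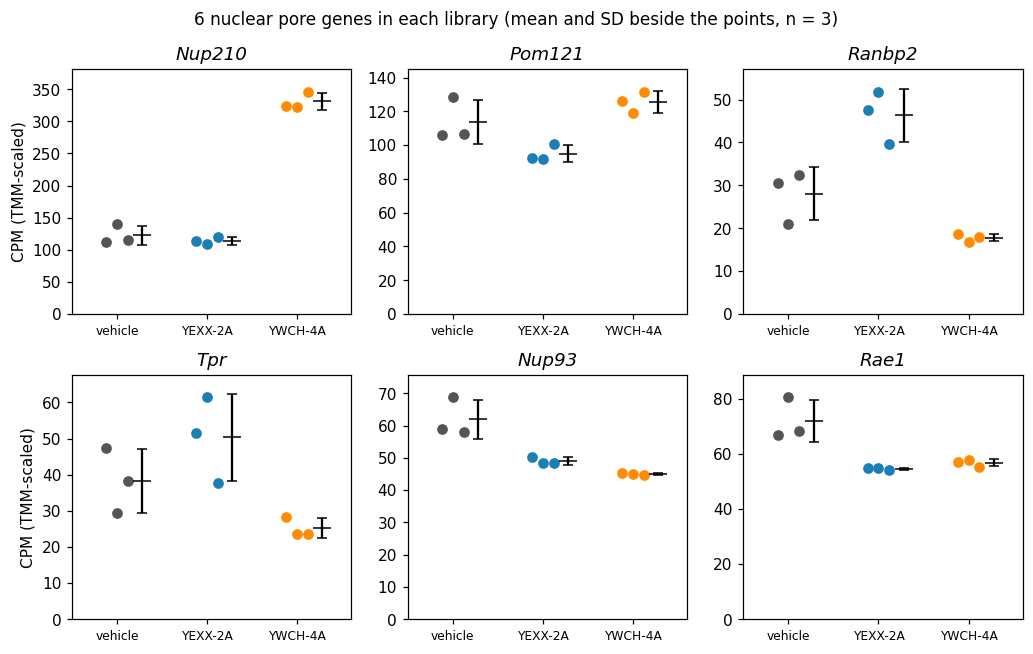
CPM of 6 nuclear pore genes in each library, with the mean and SD (n = 3) of each group beside its points; every vertical axis starts at 0. Nup210 at 323 to 346 CPM with YWCH-4A is set apart from the other libraries, Ranbp2 is highest with YEXX-2A and lowest with YWCH-4A, and Nup93 and Rae1 are below vehicle in both compounds, which share those vehicle libraries.

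On the cytoplasmic face, Ranbp2 forms the filaments and carries a SUMO ligase. It had 30.7, 21.0 and 32.4 CPM in vehicle, 47.6, 51.9 and 39.6 with YEXX-2A and 18.6, 16.9 and 18.0 with YWCH-4A. The 3 groups did not overlap. Vehicle replicate 2 was the lowest of its group and lay nearest to the YWCH-4A libraries. Ranbp2 rose with YEXX-2A by 0.73 (SE 0.15, edgeR adjusted p = 0.00936) and fell with YWCH-4A by 0.65 (SE 0.16, adjusted p = 0.00959). The difference between the compounds was -1.38 (95% interval -1.72 to -1.04, adjusted p = 8.18e-05), the lowest value among the 28 genes. The rise was 0.56 without vehicle replicate 2 and 0.39 with the library score, called in all 20 alternatives. The fall was called in 18 and lost on FPKM, where it was -0.33 (limma, adjusted p = 0.0986). Rae1, an mRNA export factor that docks on Nup98, was at 66.7, 80.6 and 68.4 CPM in vehicle, 54.9, 54.9 and 54.2 with YEXX-2A and 57.1, 57.7 and 55.3 with YWCH-4A. All vehicle libraries were above all 6 treated ones. It fell with YEXX-2A and with YWCH-4A (-0.40 and -0.34, edgeR adjusted p = 0.00799 and 0.00778), and both calls were kept in all 20 alternatives. Nup214, a scaffold of the export platform, had 2 gene models in the table, between which reads may be split. The main model (ENSRNOG00000023393) fell by 0.24 with YEXX-2A (adjusted p = 0.0497), a call kept in 4 of 21 alternatives, while the second (ENSRNOG00000047244) had 0.19 (adjusted p = 0.296). Summed, they had -0.21 (adjusted p = 0.0773), which did not pass. Nup88, the partner of Nup214, and Nupl2, an mRNA export cofactor, had changes of 0.17 and -0.08 with YEXX-2A and 0.19 and -0.01 with YWCH-4A, none called.

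In the nuclear basket, Tpr was called with YWCH-4A and the other 2 genes were called with neither compound. Tpr, the coiled-coil protein that forms the basket fibres, had 47.3, 29.5 and 38.1 CPM in vehicle, 51.5, 61.5 and 37.8 with YEXX-2A and 28.4, 23.6 and 23.5 with YWCH-4A. The YWCH-4A libraries were below all others, by little from vehicle replicate 2, and the vehicle and YEXX-2A libraries overlapped. The log2 difference of YWCH-4A from YEXX-2A was -1.0 (95% interval -1.43 to -0.57, edgeR adjusted p = 0.00307), called in all 20 alternatives. Against vehicle it fell by 0.61 (SE 0.20, adjusted p = 0.0384), a call lost in 10 of 20 alternatives, among them without vehicle replicate 1 (-0.42, adjusted p = 0.143) and without vehicle replicate 3 (adjusted p = 0.0615). With YEXX-2A its change was 0.39 (95% interval -0.03 to 0.82), which did not pass. Nup153, which ties the basket to the ring and binds importins, had changes of 0.33 with YEXX-2A (adjusted p = 0.104) and 0.24 with YWCH-4A (adjusted p = 0.251). It showed the lowest level of any member in vehicle replicate 2 relative to the other vehicle libraries: vehicle replicates 1 to 3 had 160.3, 98.4 and 157 CPM. Nup50, a mobile cofactor of importin release, had -0.04 and 0.07. Nup98, a repeat protein found on both faces, had 0.06 and 0.02, the tightest interval of the set (-0.09 to 0.20 with YEXX-2A).

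In the outer ring, the Y-shaped scaffold that coats the membrane curve, 2 of 6 genes rose with YEXX-2A, 1 fell and none was called with YWCH-4A. Nup43 and Nup37, small WD-repeat subunits, rose by 0.44 and 0.37 (edgeR adjusted p = 0.0457 and 0.0457). Nup43 was at 18.6, 12.9 and 19.6 CPM in vehicle, 21.6, 22.4 and 25.5 with YEXX-2A and 18.1, 17.5 and 14.9 with YWCH-4A. Nup37 was at 18.9, 12.8 and 16.3 CPM in vehicle, 20.5, 20.6 and 20.9 with YEXX-2A and 18.1, 19.8 and 18.8 with YWCH-4A. In both genes the YEXX-2A libraries were above all others and vehicle replicate 2 was the lowest library of all. Without it the changes were 0.27 and 0.23 (adjusted p = 0.0522 and 0.0677), and the calls were kept in 9 and 8 of 20 alternatives. Between the compounds the difference of Nup43 was -0.45 (adjusted p = 0.0402, kept in 10 of 20). Nup133, the stalk subunit, fell by 0.31 with YEXX-2A (adjusted p = 0.0139, kept in 17), from 86.1, 87.8 and 78.4 CPM to 68.1, 65.4 and 70.7, with 77.6, 69.8 and 76.4 in the YWCH-4A libraries. Nup107, Nup160 and Nup85, the core of the Y, had changes of 0.28, 0.40 and -0.18 with YEXX-2A and 0.22, 0.00 and -0.11 with YWCH-4A, none called. Subunits of this one complex had changes of either sign with YEXX-2A. Over all tested genes 17.6% were called higher and 18.5% lower with YEXX-2A, and 30.6% were called with YWCH-4A.

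In the inner ring, the scaffold next to the channel, Nup93 was the gene called with both compounds. Nup93, which recruits the channel proteins, was at 58.9, 68.9 and 58.2 CPM in vehicle, 50.4, 48.3 and 48.5 with YEXX-2A and 45.5, 45.0 and 44.6 with YWCH-4A. The 3 groups did not overlap. It fell with YEXX-2A and with YWCH-4A (-0.34 and -0.46, edgeR adjusted p = 0.0131 and 0.00127), the latter in all 20 alternatives and the former in 18. The difference between the compounds, -0.12 (95% interval -0.30 to 0.05), did not pass. Nup155, which contacts the membrane, rose by 0.57 with YEXX-2A (adjusted p = 0.0210), from 37.5, 24.1 and 40.2 CPM to 47.5, 49.0 and 55.2, and stood at 43.3, 42.8 and 41.3 with YWCH-4A. Its rise was 0.37 without vehicle replicate 2 and 0.29 with the library score (adjusted p = 0.110), and the call was kept in 15 of 20 alternatives. Nup188 fell by 0.30 with YEXX-2A (adjusted p = 0.0211, kept in 16), while its large paralog Nup205 had 0.10 and was not called. With YWCH-4A they had -0.18 and -0.02. Nup35, a membrane-binding adaptor, had 0.15 and 0.10.

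The channel proteins Nup62, Nup58 and Nup54 assemble as a trimer, and the changes of their transcripts against vehicle had either sign. Nup62 was at 178, 209 and 177 CPM in vehicle, 167, 151 and 164 with YEXX-2A and 142, 149.7 and 152 with YWCH-4A. Vehicle was above every treated library. Nup62 fell by 0.34 with YWCH-4A (SE 0.08, edgeR adjusted p = 0.00673, kept in 18 of 20 alternatives) and by 0.23 with YEXX-2A (adjusted p = 0.0444, kept in 7). Nup58 rose by 0.56 with YEXX-2A (adjusted p = 0.0215, kept in 16), from 30.5, 19.6 and 32.9 CPM to 42.0, 41.7 and 39.0. Its YWCH-4A libraries, at 33.5, 36.5 and 36.8 CPM, were above all vehicle libraries too, a change of 0.36 that did not pass (adjusted p = 0.101). Without vehicle replicate 2 the YEXX-2A change was 0.37, and with the library score 0.23 (adjusted p = 0.0541). Nup54 had 0.10 with YEXX-2A and -0.12 with YWCH-4A, and -0.30 with YWCH-4A without vehicle replicate 2 (adjusted p = 0.0172).

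Vehicle replicate 2 touched most of these genes. Its log2 level relative to the mean of vehicle replicates 1 and 3 ran from -0.69 (Nup153) to 0.40 (Aaas), with a median of -0.24, and -0.01 over all genes. Of the 28 genes 9 (32.1%) lay under -0.5, and 22.1% of all genes: Nup153, Nup155, Nup58, Nup54, Ranbp2, Nup160, Nup43, Nup107 and Tpr. Another 11 lay above 0, among them Aaas, both Nup214 models, Nup210, Nup188, Pom121, Rae1, Nup93, Nup62 and Nup85. It is 1 of the 3 libraries of the vehicle mean, so its side and a call against vehicle are not independent. The 6 genes that rose with YEXX-2A were all low in this library and the 8 that fell were all high, and over all genes 92.6% of those that rose were low and 92.5% of those that fell were high. With YWCH-4A, Nup93, Nup62 and Rae1 fell and were high in this library. Nup210 rose and was high in it too (0.29), and Ranbp2 and Tpr fell and were low in it (-0.58 and -0.525). Of the 14 YEXX-2A calls, 11 were kept without it (78.6%, and 88.8% of the calls over all genes), those of Nup37, Nup43 and Nup214 being lost. With the library score, which can itself hold part of a group difference, 7 were kept (50%, and 48% over all genes). All 6 calls of YWCH-4A against vehicle were kept without it and with the score, where 95.8% and 99.1% of the calls over all genes were kept. The mitochondrially encoded transcripts moved with the same library: all 13 together made up 19551, 15872 and 21291 CPM in vehicle, 25184, 26471 and 23286 with YEXX-2A and 17692, 18764 and 17901 with YWCH-4A. Vehicle replicate 2 was the lowest library in them. The part of the mitochondrial transcripts in the nuclear pore results was not tested.

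**Figure D4:**
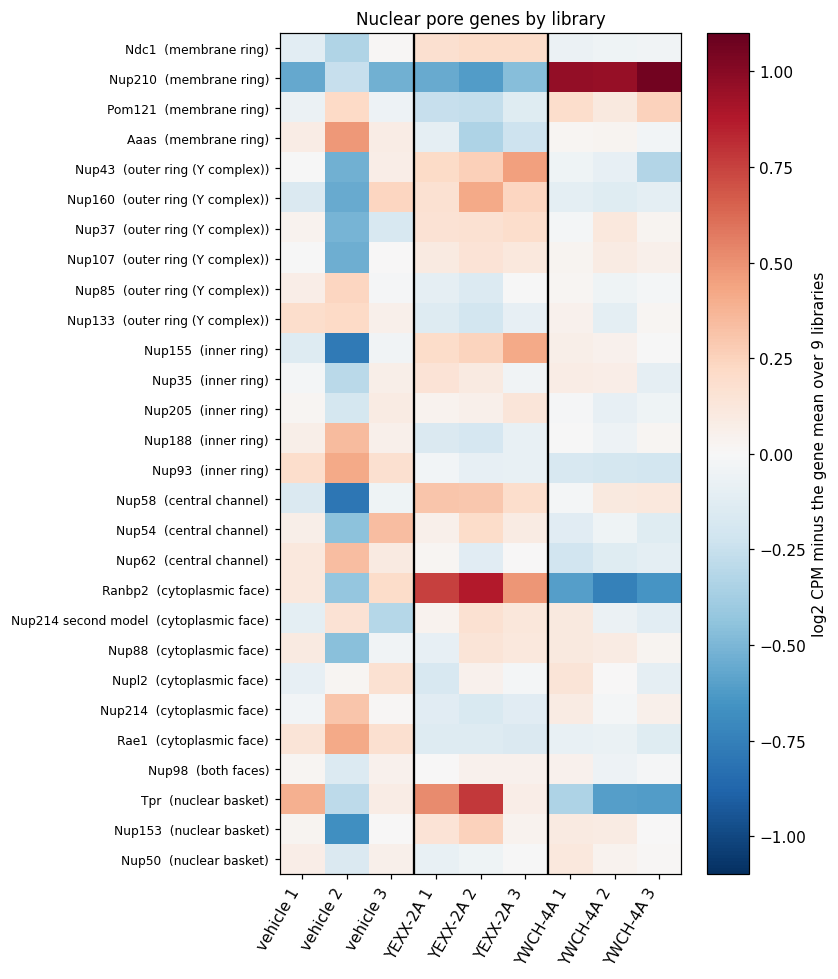
Log2 CPM of the 28 tested genes in each library minus the gene's mean over the 9 libraries, by place in the pore. Vehicle replicate 2 is the lowest library for Nup155, Nup58 and Nup153, the YWCH-4A libraries are set apart in Nup210, and Ranbp2 and Tpr are low in those 3 libraries.

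**Figure D5:**
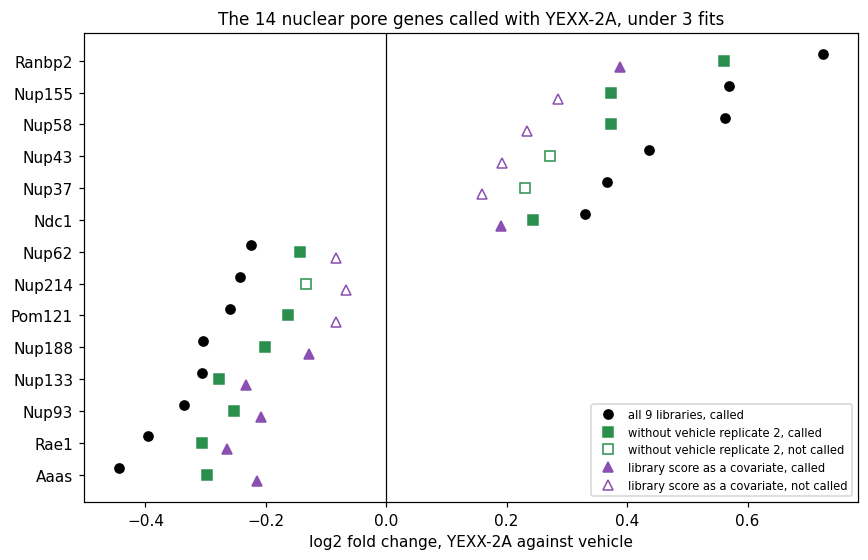
Log2 fold change with YEXX-2A against vehicle of the 14 genes called on all 9 libraries (circles), without vehicle replicate 2 (squares) and with the library score in the model (triangles); filled symbols are called. Every gene keeps its direction and moves towards 0, as Ranbp2 does from 0.73 to 0.56 and 0.39. The score can itself hold part of the group difference.

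Genes that work with the pore were read from lists set out by function, with counts as higher and lower in the order YEXX-2A against vehicle, YWCH-4A against vehicle and YWCH-4A against YEXX-2A. The shares called over all genes, 36.1%, 30.6% and 31.3% in that order, are the background of each count. Pore-associated proteins outside the naming rule gave 11 gene rows from 10 matched list entries. Of these rows 2 were higher and 2 lower, then none was called by edgeR, then 2 were lower. In the second comparison 2 had an unadjusted edgeR p under 0.05, and 1 was called by DESeq2 and 1 by limma on FPKM. Ahctf1, which seeds pore assembly on chromatin, rose by 0.69 with YEXX-2A (edgeR adjusted p = 0.0252), at 70.7 ± 7.46 CPM against 43.7 ± 14.4 in vehicle (SD, n = 3). Its difference of YWCH-4A from YEXX-2A was -0.66 (adjusted p = 0.0280). Eny2, a subunit of the TREX-2 export complex, rose by 0.45, and Zc3hc1 and Sec13 fell with YEXX-2A (log2 fold change -0.26 and -0.19). Among 18 importins, carriers of cargo into the nucleus, 4 were higher and 3 lower, then 3 lower, then 5 lower. Ipo11 and Ipo7 rose by 0.97 and 0.95 with YEXX-2A, and the differences of YWCH-4A from YEXX-2A were -0.88 for Ipo7 and -0.76 for Kpna4. Ipo4 and Ipo13 fell with YEXX-2A (-0.41 and -0.32) and with YWCH-4A (-0.53 and -0.54). Among 7 tested exportins, 3 were higher, then 2 lower, then 3 lower. Cse1l and Xpo4 rose by 0.63 each with YEXX-2A, and Xpot, the tRNA carrier, fell by 0.57 with YWCH-4A.

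The Ran cycle, which gives transport its direction, had 1 higher and 3 lower of 8, then 3 lower, then 1 lower. Rcc1, which loads Ran with GTP on chromatin, fell with YEXX-2A and with YWCH-4A (-0.42 and -0.49, edgeR adjusted p = 0.0105 and 0.00228). Ranbp1 rose by 0.27 with YEXX-2A. Of 15 tested mRNA export genes 3 were higher and 5 lower, then 3 lower, then 2 lower. Thoc2, of the THO complex, was at 3.64 ± 0.184 CPM with YWCH-4A, 6.60 ± 2.03 in vehicle and 11.01 ± 2.07 with YEXX-2A (SD, n = 3), a fall of 0.86 against vehicle and a difference of -1.60 between the compounds. Nxt2 and Thoc1, both at or under 3.38 CPM on average, rose by 1.08 and 1.05 with YEXX-2A, while Thoc6 and Ddx39b fell (-0.56 and -0.28). Of 17 gene rows of the lamina and envelope, from 16 matched list entries, 4 were higher and 6 lower, then 3 lower, then 3 higher. Lmna, which encodes lamins A and C, fell with YEXX-2A and with YWCH-4A (-0.44 and -0.56), from 1722 ± 312 CPM to 1270 ± 61.8 and 1169 ± 38.0 (SD, n = 3). Ankle2 and Tor1aip1 rose by 0.69 and 0.43 with YEXX-2A and Syne3 fell by 0.46. Emd, which encodes emerin, fell by 0.35 with YWCH-4A.

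Pores are taken apart at mitosis and built again over the cell cycle, so cell cycle genes are given beside them, against the same background shares. Of 19 genes of G2/M and mitosis 7 were higher and 1 lower with YEXX-2A, 3 higher and 1 lower with YWCH-4A, and 2 higher and 4 lower between them. Ncapg and Top2a rose by 1.15 and 0.85 with YEXX-2A and Plk1 fell by 0.31. With YWCH-4A, Birc5 and Aurkb rose by 0.34 and 0.26 and Cenpe fell by 0.65. Their sum was 1379, 1215 and 1371 CPM in vehicle, 1515, 1602 and 1441 with YEXX-2A and 1416, 1386 and 1313 with YWCH-4A, again lowest in vehicle replicate 2. Of 20 S phase genes 6 were higher and 6 lower with YEXX-2A, 6 higher with YWCH-4A, and 9 higher and 1 lower between them. Gins1 and Rfc4 rose by 0.68 and 0.61 with YWCH-4A. With YEXX-2A, Pola1 and Pcna rose by 1.11 and 0.62, and Cdt1 and Chaf1b fell (-0.52 and -0.41). Of the 13 mitochondrially encoded genes 8 were higher with YEXX-2A, 1 was lower with YWCH-4A and 11 were lower between them. Of 6 tested fibroblast markers 4 were lower with YEXX-2A, 1 higher and 3 lower with YWCH-4A, and 2 higher and 3 lower between them. Col3a1 fell with both compounds (-0.90 and -3.72), Pdgfrb fell with YEXX-2A (-0.60) and Col1a1 fell with YWCH-4A (-2.32). Pdgfra rose by 0.69 with YWCH-4A. Pdgfra and Pdgfrb were higher with YWCH-4A than with YEXX-2A, by 0.66 and 0.67, while Col1a1 and Col3a1 were lower (-1.76 and -2.82). Of 3 tested markers of kidney epithelium 2 were lower in each comparison (Krt8 and Aqp1). Flt1, the only endothelial marker that passed the filter, rose with each compound by 0.54 and 0.84. Cd68, the only leukocyte marker that passed it, fell by 0.33 with YEXX-2A and rose by 0.37 with YWCH-4A. The part of these lists in the nuclear pore values was not tested.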

How the data were processed

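RNA-seq was made from 9 NRK-49F libraries, 3 a group. Per the labels' protocols, mRNA was selected with oligo(dT) and strand was not stated, so reads of overlapping genes cannot be told apart. The submitters' processing notes name StringTie 1.3.1, RSEM, DESeq2 and edgeR, without their roles. For the aligner, build and annotation the entry is: not given in the sources used here. Estimated counts per gene and library were made by the authors and deposited with FPKM values, per the file headers, and 8.87% of the counts above 0 were not whole.

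Counts were rounded, scaled with TMM factors and passed through filterByExpr (edgeR 4.0.16, minimum count 10), leaving 11473 genes. Library totals of 13675880 to 21923706 set the counting error. The robust quasi-likelihood test used all 9 libraries with group as the factor, two-sided, and p-values were adjusted over all tested genes with the Benjamini-Hochberg method. Standard errors were derived from the F statistic. The test was checked on simulated counts. The library score used the first component of the deviations from group means. Each library was centred on the mean of all libraries and placed on that component. The score was -18.3, -25.8 and -5.6 with YEXX-2A and -0.3, 51.3 and -6.3 in vehicle. It can thus hold part of a group difference, and take up that part as a covariate.

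There were 20 alternatives. They were scaling with DESeq2 size factors or by upper quartile, no filter or 1 CPM in 6 libraries, DESeq2 1.42.0, limma-voom and limma 3.58.1 on log2(FPKM + 1) or log2(FPKM + 0.1). The others were the 2 groups compared alone, a replicate block, the library score, and each library left out. Summing the Nup214 models was added after seeing the data. All nuclear pore genes are named. In the 13 related lists 156 of 163 entries matched. Genes named from them for a change were taken from the up to 2 called per direction and comparison with the largest change. These had no overlap between groups and a mean of at least 1 CPM. Not every gene that met this rule is named. The members and lists were chosen with earlier results of these data known. Computations ran in R 4.3.3.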

Additional observations from a re-analysis of the deposited data

How the results depend on the processing

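Nup210 with YWCH-4A, Nup93 and Rae1 with YWCH-4A, Ranbp2 and Rae1 with YEXX-2A, and Nup210, Pom121, Ranbp2 and Tpr between the compounds kept their direction and call in all 20 alternatives. Counts below are genes called higher and lower among the 28 tested, each with the percentage of all genes called. With YEXX-2A against vehicle (6 and 8, 36.1%), leaving out a library gave 1 to 7 higher and 1 to 9 lower (9.03% to 45.6%), the 2 groups alone 1 and 1 (12.5%), and the library score 2 and 5 (20.3%). FPKM with 1 or 0.1 added gave 5 lower (32.4% and 31.3%). The median of 0.10 became -0.037 with the score and 0.20 on FPKM with 0.1 added. With YWCH-4A against vehicle (1 and 5, 30.6%), FPKM with 1 added gave 5 and 2 (41%) with a median of 0.17, FPKM with 0.1 added 4 and 2 (40.4%) with a median of 0.20, the score 4 and 8 (49.4%), and leaving out a library 1 to 3 higher and 4 to 6 lower (21.2% to 39.4%). Between the compounds (2 and 4, 31.3%), FPKM gave 6 and 2 (35.8% and 34.7%) with a median of 0.017 or 0.018, the 2 groups alone 5 and 9 (51.5%), the score 4 and 6 (44.6%), and leaving out a library 2 to 5 higher and 2 to 10 lower (19.2% to 51.6%). Nup153 between the compounds went from -0.08 to 0.14 with the score. The cause of these shifts was not tested.

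The replicate block gave 4 higher and 4 lower with YEXX-2A (16.8%), 1 and 4 with YWCH-4A (24.3%) and 2 and 2 between the compounds (22.8%). Same-numbered libraries correlated between -0.27 and 0.08 in their deviations from the group means, so no strong pairing by number was seen. With 3 libraries a group these correlations cannot exclude a pairing. Counts for the related lists stayed within 1.5 times in 1243 fits and moved further in 317. Nup210l, with at most 13 counts a group, and Nup214, whose reads may be split between 2 models, are limited by depth and annotation.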
